A study of Mus musculus with 8 samples.

Results

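GATA1 and its partners among the transcription factors of the red cell and megakaryocyte lineages were examined in hematopoietic stem cells (HSCs) that lost Mitol. The genes are Gata1, Gata2, Zfpm1, Gfi1b, Klf1, Tal1, Lmo2, Ldb1, Epor and Nfe2. Gata1 was chosen by its large rise in normalized counts between the groups, and the other 9 because they act with GATA1 or carry its lineage signal. All 10 genes were found by symbol in the count table, which holds 22065 named genes, and all 10 passed the filter on low counts. Because of that choice, the Gata1 difference and the balance with Gata2 are given as a description with no test.

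Bulk RNA-seq was done on 8 libraries, each from 100 HSCs sorted from bone marrow of C57BL/6 mice aged 8 to 10 weeks. Mitol, listed in the table as Marchf5, encodes a ubiquitin ligase of the outer mitochondrial membrane. The 4 Mitol knockout libraries (MitolΔ/Δ) came from Mitol Flox/Flox; MX1-cre+ mice and the 4 control libraries from Mitol Flox/Flox mice without cre, 1 week after Poly:IC, which both groups received. The sort took lineage-negative, c-Kit+ cells that were CD150+, CD48- and EPCR+. The MX1 promoter responds to interferon and drives cre in many cell types, so the promoter does not limit the deletion to HSCs. The labels do not say whether each library came from its own mouse or from pooled mice, so p-values measure the spread between these libraries. A library reads the RNA of all its cells together, so a change in the share of cells that express a gene cannot be told apart from a change in RNA per cell.

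GATA1 is a zinc finger factor that binds GATA motifs in DNA and is needed to make red cells and megakaryocytes, and also mast cells and eosinophils. GATA2, its relative, maintains stem and progenitor cells, and as red cells form GATA1 takes the place of GATA2 at shared sites, the GATA2 gene among them. GATA1 works with the cofactor FOG-1 (encoded by Zfpm1) and in a DNA-bound complex with TAL1, LMO2 and LDB1, and KLF1, NF-E2 and GFI1B act on many of the same genes.

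Depth was between 7214935 and 12398138 counts on named genes per library. Marchf5 itself was at 274 ± 31.8 normalized counts in MitolΔ/Δ HSCs and 302 ± 29.9 in control HSCs (SD, n = 4 each), a log2 fold change of -0.15 (edgeR, adjusted p = 0.498), so the count over the whole gene did not set the deleted libraries apart, and counts per gene do not show which exons were lost. Of the genes that define the gate, Kit was lower in MitolΔ/Δ HSCs (log2 fold change -0.75, edgeR, adjusted p = 0.00705, where the threshold is 0.05 after adjustment over all genes tested) and Cd48, which the gate selects against, was higher, at a mean of 39.6 against 11.8 normalized counts (log2 fold change 1.72, adjusted p = 0.0450). Slamf1, which encodes CD150, and Procr, which encodes EPCR, were detected in all 8 libraries and did not pass the threshold (edgeR, adjusted p = 0.0501 and 0.179), although Slamf1 was higher in every MitolΔ/Δ library than in any control library and DESeq2 called it higher (adjusted p = 0.0117). Of 12 cell cycle genes 11 passed the edgeR threshold as higher in MitolΔ/Δ HSCs, as did 4.68% of all 16444 genes tested. MitolΔ/Δ replicate 3 stood apart in genes of mature red cells, which is taken up beside the results it touches.

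The regions upstream of the 3 genes whose mean was higher in MitolΔ/Δ HSCs, Gata1, Klf1 and Epor, are shown because GATA factors and KLF1 bind short motifs that can be read in them. Each is the 250 bases before the RefSeq start on GRCm38.p6, 5′ to 3′ on the gene's strand, from chrX:7967911-7968160 (minus strand), chr8:84901732-84901981 (plus strand) and chr9:21963577-21963826 (minus strand). Capitals mark a match on either strand, so that a match on the other strand appears as its reverse complement. The search was for the CACCC box and for 4 GATA forms, in which the core GATA follows A or T and is followed by A or G.
Gata1: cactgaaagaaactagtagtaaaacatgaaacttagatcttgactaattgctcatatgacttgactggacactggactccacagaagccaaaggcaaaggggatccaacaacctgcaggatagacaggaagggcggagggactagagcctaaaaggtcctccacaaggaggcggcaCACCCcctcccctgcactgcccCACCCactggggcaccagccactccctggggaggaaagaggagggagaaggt
Klf1: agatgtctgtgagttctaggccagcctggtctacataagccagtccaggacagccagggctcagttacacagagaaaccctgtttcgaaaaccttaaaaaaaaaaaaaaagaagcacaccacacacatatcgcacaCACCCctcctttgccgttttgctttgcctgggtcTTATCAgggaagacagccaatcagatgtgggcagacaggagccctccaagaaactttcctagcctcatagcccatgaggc
Epor: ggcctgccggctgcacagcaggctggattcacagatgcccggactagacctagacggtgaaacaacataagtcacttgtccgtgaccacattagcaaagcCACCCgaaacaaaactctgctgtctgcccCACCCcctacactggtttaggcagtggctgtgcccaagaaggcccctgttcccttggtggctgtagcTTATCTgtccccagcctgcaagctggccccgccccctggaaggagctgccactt

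The Gata1 region holds 2 CACCC boxes, 74 and 52 bases before the start, and no GATA form. Klf1 holds 1 TGATAA on the opposite strand at 80 bases and 1 CACCC at 114 bases before the start. Epor, which encodes the erythropoietin receptor, holds 1 AGATAA on the opposite strand at 54 bases and 2 CACCC boxes at 150 and 121 bases. Among the members, 8 matched the promoter table, with 12 promoters in all, and Lmo2 and Nfe2 are named only. A GATA form was in 5 of the 12 and CACCC in 10, against 26.5% and 52.0% of 32851 mouse promoter windows of the same length. A match describes letters, not bound sites, and no binding was measured.

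Gata1 was higher in every MitolΔ/Δ library than in any control library. The gene (ENSMUSG00000031162.16) lies on the minus strand of chromosome X from 7825499 to 7844310 in GRCm39. Its normalized counts, which are counts divided by the size factor of the library, were 114, 131, 297 and 305 in MitolΔ/Δ replicates 1 to 4 and 25.1, 31.9, 22.6 and 6.29 in control replicates 1 to 4. The means were 212 ± 103 and 21.5 ± 10.9 (SD, n = 4 each), a ratio of 9.86. The fitted log2 fold change was 3.30 (standard error 0.45), between 3.23 and 3.35 over the other normalizations and tools and between 2.98 and 3.57 when each library was left out in turn. MitolΔ/Δ replicates 3 and 4 were high and replicates 1 and 2 lower, while control replicate 4 was the lowest library.

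The reads behind these values were few. Gata1 had 146, 126, 324 and 288 reads in MitolΔ/Δ replicates 1 to 4 and 19, 30, 24 and 7 in control replicates 1 to 4. The exact 95% Poisson interval was 2.81 to 14.4 reads for control replicate 4, 20.2 to 42.8 for control replicate 2 and 105 to 150.02 for MitolΔ/Δ replicate 2. These intervals cover the counting error of reads only. PCR copies of a molecule were counted as separate reads, so the intervals understate the error in counting molecules.

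**Figure D1:**
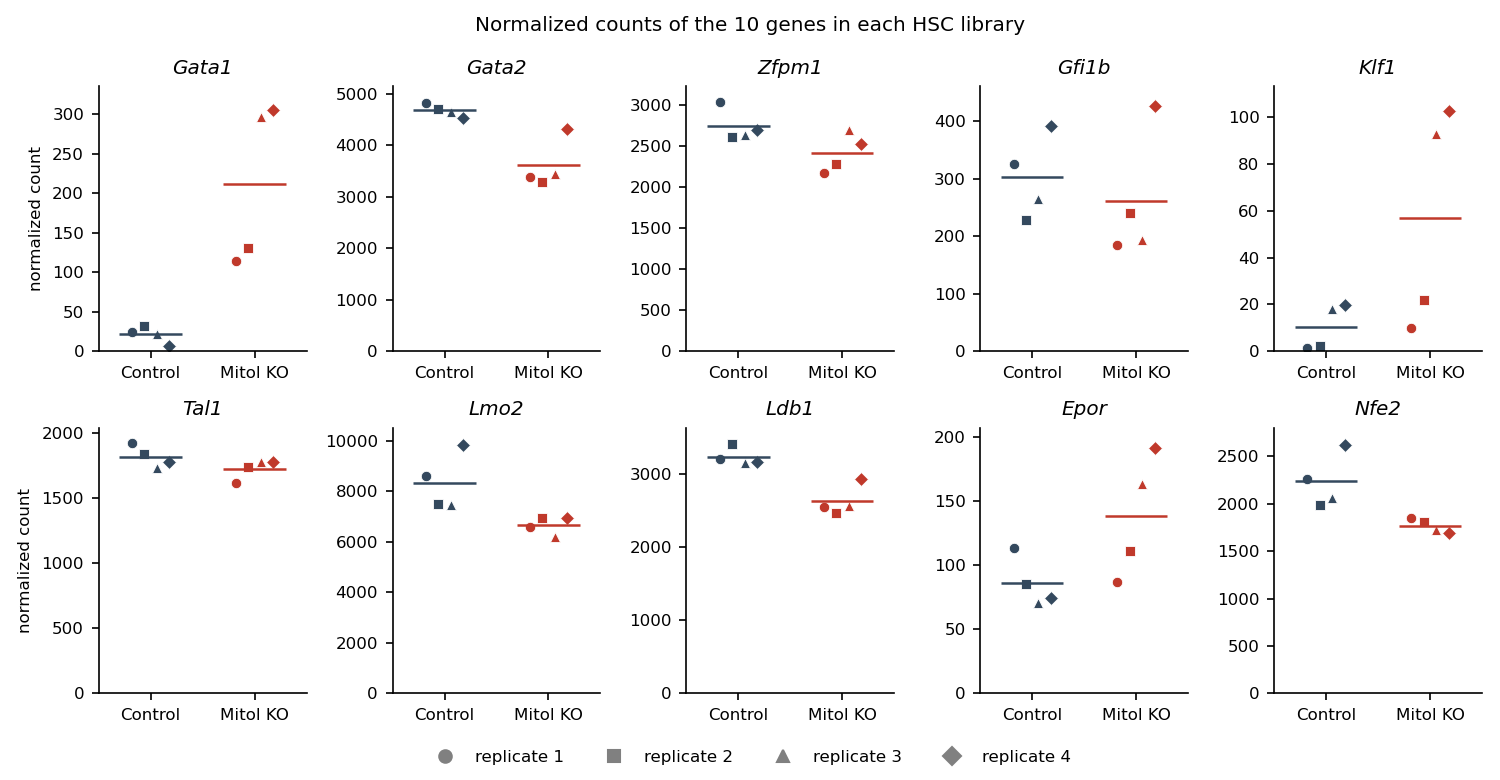
Normalized counts (counts divided by the size factor) of the 10 genes, each panel with its own axis from 0. Each point is 1 library, its shape gives the replicate number and the line is the group mean (n = 4 each). Gata1 is between 114 and 305 in Mitol KO and at most 31.9 in Control libraries, whereas the Gata2, Lmo2, Ldb1 and Nfe2 points of Mitol KO all lie below those of Control.

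The RNA of Gata2, which encodes the relative of GATA1 that maintains stem and progenitor cells, moved the other way. The normalized counts of Gata2 (chromosome 6 of GRCm39, as all gene positions here, 88170559 to 88184018, plus strand) were 3391, 3294, 3433 and 4318 in MitolΔ/Δ replicates 1 to 4 and 4825, 4702, 4647 and 4533 in control replicates 1 to 4. All 4 MitolΔ/Δ libraries lay below all control libraries, with replicate 4 close beneath them. The means were 3609 ± 476 and 4677 ± 121 (SD, n = 4 each). Gata2 fell by 0.39 on the log2 scale (standard error 0.09, edgeR quasi-likelihood test, adjusted p = 0.0287). The call held in all 7 fits with 8 libraries. Of the 8 fits that left out a library it held only without MitolΔ/Δ replicate 4 (adjusted p = 0.00290), and the adjusted p of the other fits reached at most 0.0848.

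The balance of the GATA factors shifted in each MitolΔ/Δ library. One Gata1 read stood against 29.7, 25.2, 11.6 and 14.2 Gata2 reads in MitolΔ/Δ replicates 1 to 4, and against 193, 147, 206 and 721 in control replicates 1 to 4. Of the reads on either gene, Gata1 took 3.26% (95% Wilson interval 2.78 to 3.82) in MitolΔ/Δ replicate 1, the lowest of its group, and 7.95% (7.16 to 8.82) in replicate 3, the highest. In control libraries its share was at most 0.674% (0.473 to 0.961), in replicate 2, and 0.138% (0.0671 to 0.286) in replicate 4. The Wilson intervals also take PCR copies as separate reads and so understate the error. Gata1 had fewer reads than Gata2 in all 8 libraries.

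Per kilobase of exon, the log2 ratio of Gata1 to Gata2 was -3.20, -2.96, -1.84 and -2.13 in MitolΔ/Δ replicates 1 to 4. It was -5.90, -5.51, -5.99 and -7.80 in control replicates 1 to 4. The group means were -2.53 ± 0.65 and -6.30 ± 1.02 (SD, n = 4 each), a difference of 3.77 that does not depend on library scaling. On the same log2 scale, the fitted difference of Gata2 alone was -0.39.

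**Figure D2:**
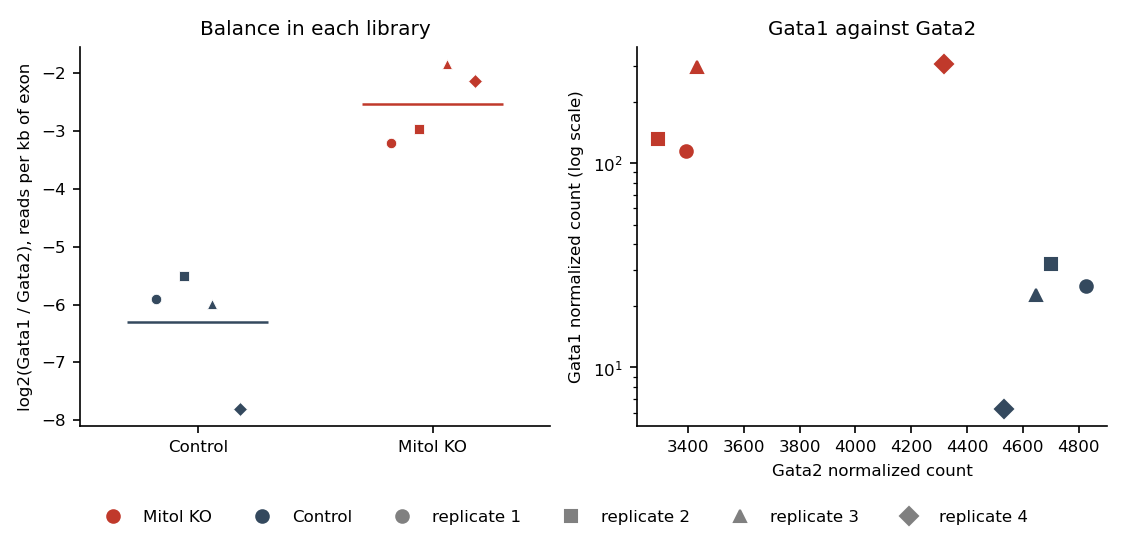
Left, log2 of Gata1 over Gata2 in reads per kilobase of exon for each library, with the group means as lines. Right, the normalized count of Gata1 (log axis) against that of Gata2 (linear axis, which does not start at 0), colour giving the group and shape the replicate. Mitol KO libraries sit between -3.20 and -1.84 and Control libraries between -7.80 and -5.51, and on the right the groups share no range on either axis.

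Gata3, the third GATA gene detected at depth, is a lymphoid factor that is not among the 10 and served as a reference. It was at 356 ± 19.3 and 383 ± 62.4 normalized counts (SD, n = 4 each) and did not pass the threshold (log2 fold change -0.13, edgeR, adjusted p = 0.582).

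Among the other 9 genes, 0 passed the threshold as higher and 4 as lower in MitolΔ/Δ HSCs, namely Gata2, Lmo2, Ldb1 and Nfe2. Of all 16444 genes tested, 4.68% were called higher and 3.75% lower, 8.43% in all. The same 4 genes had groups that did not overlap, lower in MitolΔ/Δ HSCs, as had 7.18% of all genes tested. Gata1 was the only one of the 10 without overlap in the higher direction, where 8.17% of all genes tested lay, and 15.4% had no overlap in either direction. By unadjusted p under 0.05, which 26.4% of all genes met, Klf1 and Epor also passed, as higher. DESeq2, which called 8.19% of genes higher and 5.85% lower, called the same 4 genes lower and 0 higher, as did limma-voom. The fitted log2 fold changes of the 4 genes lay between -0.39 and -0.32, and the median over all genes tested was -0.02. The 4 calls were close to the threshold, and none was kept in all 8 fits that left out a library. Here and for the lists, the size of a rise or fall is a fitted log2 fold change.

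**Figure D3:**
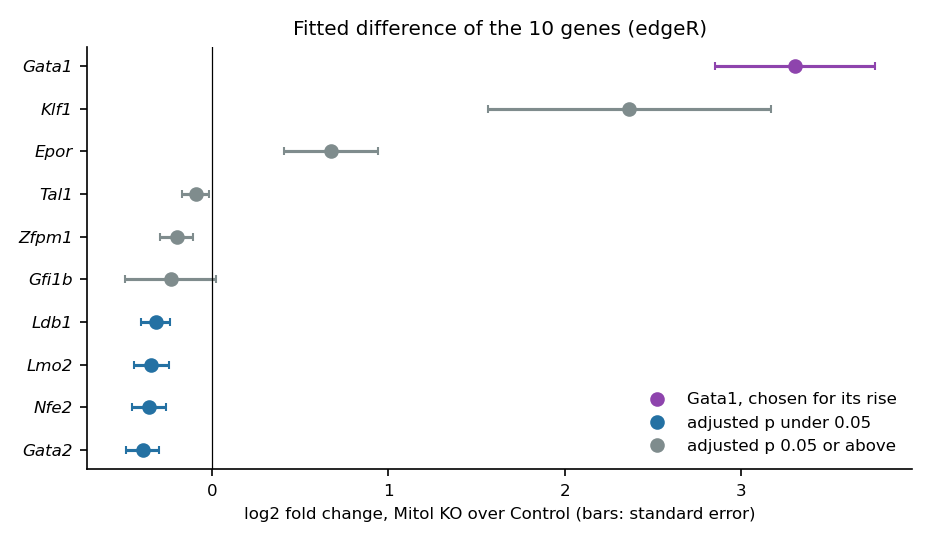
Fitted log2 fold change of the 10 genes, Mitol KO over Control, with bars of 1 standard error (edgeR, 4 libraries per group). Gata1, in purple, was chosen for its rise at 3.30 and carries no test, the 4 blue genes between -0.39 and -0.32 passed the adjusted threshold of 0.05, and the grey genes did not.

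Zfpm1 encodes FOG-1, the cofactor that binds GATA1 directly and that both lineages need. The gene is on chromosome 8 (123008805 to 123065024, plus strand). Its normalized counts were 2173, 2277, 2699 and 2527 in MitolΔ/Δ replicates 1 to 4 and 3032, 2611, 2634 and 2689.6 in control replicates 1 to 4. The groups overlapped through MitolΔ/Δ replicate 3. The log2 fold change was -0.20 (standard error 0.09, edgeR, adjusted p = 0.203).

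TAL1, LMO2 and LDB1 form the core that GATA1 or GATA2 joins on DNA, where TAL1 is the basic helix-loop-helix factor, LMO2 the bridge and LDB1 the protein that joins distant sites. Tal1 (chromosome 4, 114913623 to 114928952, plus strand) stood at 1617, 1734, 1776 and 1774 normalized counts in MitolΔ/Δ replicates 1 to 4 and 1924, 1839.8, 1728 and 1773 in control replicates 1 to 4 (log2 fold change -0.09, standard error 0.08, edgeR, adjusted p = 0.488). Lmo2 (chromosome 2, 103788331 to 103812355, plus strand) was at 6591, 6931, 6198 and 6944 against 8591, 7509, 7451 and 9825 in the same order. The Lmo2 groups did not overlap, and control replicates 1 and 4 were the highest libraries.

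Lmo2 fell by 0.34 on the log2 scale (standard error 0.10, edgeR, adjusted p = 0.0496). It passed in 5 of 7 fits with all libraries, and not with DESeq2 size factors in the edgeR fit (adjusted p = 0.0566) or without the filter on low counts (0.0688). Of the fits that left out a library, it passed only without MitolΔ/Δ replicate 4 (0.0453) and reached 0.140 without MitolΔ/Δ replicate 3.

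Ldb1 (chromosome 19, 46019964 to 46033981, minus strand) was at 2543, 2468, 2556 and 2935 normalized counts in MitolΔ/Δ replicates 1 to 4 and 3206, 3407, 3147 and 3161 in control replicates 1 to 4. The groups did not overlap, and MitolΔ/Δ replicate 4 was again nearest to the control libraries. Ldb1 fell by 0.32 (standard error 0.08, edgeR, adjusted p = 0.0351), and of the fits that left out a library it passed only without MitolΔ/Δ replicate 4 (0.0107), with 0.107 without control replicate 2. Exons of Ldb1 overlap those of Pprc1 on the other strand, whose log2 fold change was 0.47 (adjusted p = 0.0604). The strand setting of the counting is not given in the sources used here, so reads in the overlap cannot be assigned.

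Klf1, which encodes the red cell factor that binds CACCC boxes, had few reads. Klf1 (chromosome 8, 85628557 to 85631934, plus strand) was at 10.2, 21.8, 92.5 and 103 normalized counts in MitolΔ/Δ replicates 1 to 4 and 1.32, 2.13, 17.9 and 19.8 in control replicates 1 to 4. The groups overlapped, because MitolΔ/Δ replicate 1 lay below control replicates 3 and 4. The means were 56.8 ± 47.5 and 10.3 ± 9.91 (SD, n = 4 each), a ratio of 5.52, and the log2 fold change of 2.36 (standard error 0.80) did not pass the threshold (edgeR, adjusted p = 0.0859). Control replicates 1 and 2 held 1 and 2 reads, with exact 95% Poisson intervals of 0.0253 to 5.57 and 0.242 to 7.22. Without MitolΔ/Δ replicate 3 the log2 fold change was 2.03 (adjusted p = 0.194).

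Gfi1b encodes a repressor needed for red cell and platelet formation. On chromosome 2 it runs from 28499462 to 28511994 on the minus strand. Its normalized counts were 185, 240.04, 194 and 427 in MitolΔ/Δ replicates 1 to 4 and 326, 228, 265 and 392.4 in control replicates 1 to 4. MitolΔ/Δ replicate 4 was the highest of all 8 libraries and replicate 1 the lowest. The log2 fold change of -0.23 had a standard error of 0.26 (edgeR, adjusted p = 0.608).

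Nfe2 encodes the NF-E2 subunit that drives platelet release and globin genes. On chromosome 15 (103156526 to 103166830, minus strand), it was at 1854, 1806, 1724 and 1693 normalized counts in MitolΔ/Δ replicates 1 to 4 and at 2263, 1991, 2065 and 2619 in control replicates 1 to 4. The groups did not overlap, and Nfe2 was the gene whose order of MitolΔ/Δ libraries was the reverse of that of Gata1. Nfe2 fell by 0.36 (standard error 0.10, edgeR, adjusted p = 0.0425), in 5 of 7 fits with all libraries. It did not pass in any fit that left out a library, where the adjusted p was between 0.0600 (without MitolΔ/Δ replicate 4) and 0.115 (without MitolΔ/Δ replicate 3).

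Epor (chromosome 9, 21870192 to 21874879, minus strand), the receptor whose signal keeps red cell precursors alive, was at 86.9, 111, 164 and 191.5 normalized counts in MitolΔ/Δ replicates 1 to 4 and at 113, 85.1, 70.6 and 74.5 in control replicates 1 to 4. MitolΔ/Δ replicates 3 and 4 were above all control libraries, and replicates 1 and 2 were within them. The means were 138 ± 47.8 and 85.9 ± 19.3 (SD, n = 4 each), and the log2 fold change of 0.67 (standard error 0.26) did not pass the threshold (edgeR, adjusted p = 0.129). It did not pass in any of the 7 fits with all libraries or the 8 that left out a library.

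Within the MitolΔ/Δ group, Gata1, Klf1 and Epor ranked the libraries alike, with replicate 4 first, then 3, 2 and 1. Gata2 and Ldb1 had replicate 4 first as well, and then 3, 1 and 2. In control libraries Gata1 was highest in replicate 2 and lowest in replicate 4, whereas Klf1 was highest in replicate 4. The summed cell cycle genes ran opposite to Gata1 in the MitolΔ/Δ libraries, at 19613, 19497, 14193 and 9164 normalized counts in replicates 1 to 4, and were 6237, 5891, 8734 and 6197 in control replicates 1 to 4. Their part in the results was not tested.

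Levels can be compared between genes per kilobase of exon. On this scale Lmo2 was the most abundant of the 10 in both groups, with means of 2856 normalized counts per kilobase in MitolΔ/Δ and 3575 in control HSCs. Nfe2 (541 and 683), Ldb1 (519 and 638), Zfpm1 (505 and 573), Gata2 (450 and 583) and Tal1 (337 and 355) followed in the order of MitolΔ/Δ HSCs, and from Nfe2 to Gata2 the libraries of neighbours in this order overlapped there. In control HSCs Gata2 stood above Zfpm1, and their libraries overlapped. This order holds for the union of all exons of a gene. With the length of the canonical transcript Gata2 (1008 and 1306) stood second, above Nfe2 (977 and 1234), Ldb1 (758 and 932) and Zfpm1 (538 and 609). Gfi1b was at 143 and 165. Gata1 was at 8.65 per kilobase in control HSCs, beneath Epor at 38.4, and at 85.2 in MitolΔ/Δ HSCs, above Epor at 61.9, where the libraries of the pair overlapped (46.0 to 123 for Gata1 and 38.9 to 85.7 for Epor). Klf1 was the lowest in both groups, at 36.8 and 6.65. In MitolΔ/Δ HSCs the mean of Gata1 stayed under that of Gfi1b, whose libraries (101 to 234) it overlapped.

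The further partners and cofactors of GATA1, such as E-proteins, ETS and RUNX factors and the NuRD and CoREST repressor subunits, were called at a share near that of all genes. Of 41 listed genes, 40 were tested, and 1 passed as higher and 2 as lower, where 4.68% and 3.75% of all genes tested did, with a median log2 fold change of 0.02 against -0.02 over all genes tested. Gatad2a, a NuRD subunit, rose by 0.55 (edgeR, adjusted p = 0.0232). Mafg, the small MAF partner of NF-E2, fell by 0.42 (adjusted p = 0.0238), and Klf6 fell by 0.55 (adjusted p = 0.0388). The most abundant, Myb and the corepressor Cbfa2t3, had log2 fold changes of 0.02 and -0.29 (adjusted p = 0.912 and 0.108). Over the fits that left out a library, 0 to 2 genes of the list were called higher and 0 to 3 lower, and edgeR called 0 of the list without MitolΔ/Δ replicate 1 or 2 or without control replicate 2.

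Some of the red cell genes that GATA1 switches on rose. Of 36 listed, 34 were in the table and 24 were tested, of which 5 passed as higher and 0 as lower in the edgeR test (4.68% and 3.75% of all genes), with a median log2 fold change of 0.32. This median was 0.80 by DESeq2 or with no filter on low counts, and between 0.21 (without MitolΔ/Δ replicate 4) and 0.52 (without MitolΔ/Δ replicate 1) when a library was left out. At an unadjusted p under 0.05 these counts were 8 and 1, DESeq2 called 5 and 0, and limma-voom called 2 and 0. The membrane skeleton genes Ank1 and Sptb rose by 2.25 and 2.93 (edgeR, adjusted p = 0.0291 and 0.0354), and the adult globin gene Hbb-bt by 1.29 (adjusted p = 0.0442). Tfrc, the transferrin receptor, was called higher too. The abundant Car2 and Gypc had log2 fold changes of -0.22 and -0.03 (adjusted p = 0.316 and 0.863). Without MitolΔ/Δ replicate 3 the list had 1 gene called higher, and Ank1, Sptb, Tfrc and Hbb-bt no longer passed (edgeR, adjusted p between 0.0702 and 0.105). The edgeR test called 0 genes higher without control replicate 2, 1 without control replicate 3, 2 without control replicate 4 and 3 without control replicate 1 or MitolΔ/Δ replicate 2.

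MitolΔ/Δ replicate 3 held RNA of mature red cell genes that the other libraries nearly lacked. These genes were chosen after their values were seen. Slc4a1, the anion exchanger band 3, was at 1387 normalized counts there and at 0, 2.08 and 0 in MitolΔ/Δ replicates 1, 2 and 4. Hbb-bs was at 1048 there, against at most 19.7 in any other library.

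The 7 red cell markers in the table (of 8 listed, 1 of them, Hbb-bt, called) summed to 968, 986, 4754 and 1576 normalized counts in MitolΔ/Δ replicates 1 to 4 and to between 370 and 794 in control libraries. In MitolΔ/Δ replicates 1, 2 and 4 most of the sum was Hbb-bt. Alas2 was at 147, 162 and 147 there and was not called (log2 fold change 0.07, edgeR, adjusted p = 0.858). The remaining markers were at most at 19.7 in these libraries. Gata1 was at 297 normalized counts in MitolΔ/Δ replicate 3 and at 305 in replicate 4, where Slc4a1 was at 0. Replicate 4 was not free of red cell RNA. Car1, Ermap, Rhag and Aqp1, from the list of red cell targets, were at 523, 249, 218 and 436 there. In replicate 3 they were at 6.41, 138, 114 and 308, and in control libraries at most at 52.8, 9.58, 91.4 and 127. Most genes of that list were higher in replicate 3 than in replicate 4. Without replicate 3 the log2 fold change of Gata1 was 3.10 and its MitolΔ/Δ mean 183 ± 105 (SD, n = 3). Hbb-bt, which was at 815, 801, 1432 and 1408 in MitolΔ/Δ replicates 1 to 4, was high in replicate 4 as well.

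**Figure D4:**
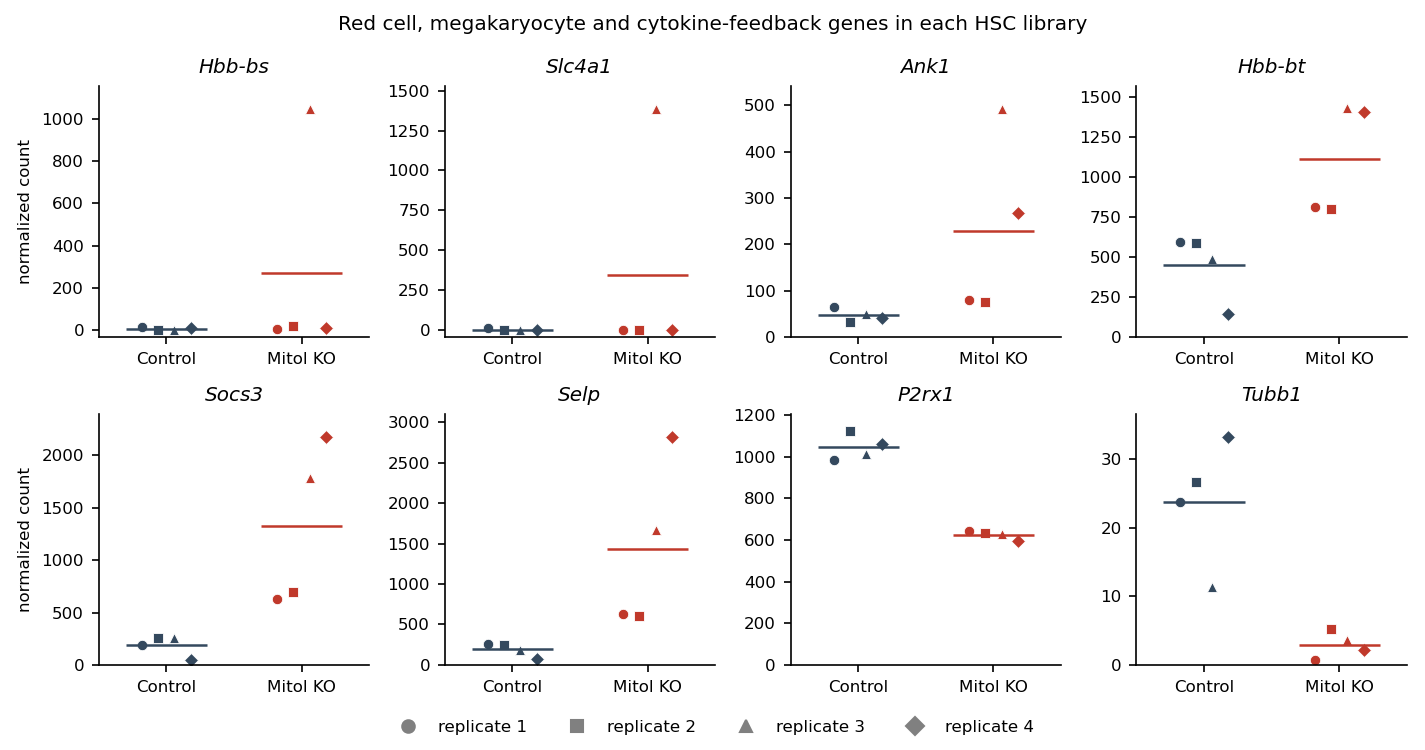
Normalized counts of 8 genes in each library, with group means as lines and the shape giving the replicate (n = 4 each). Hbb-bs and Slc4a1 are high in Mitol KO replicate 3 alone, at 1048 and 1387, whereas Ank1, Hbb-bt, Socs3 and Selp are higher in all 4 Mitol KO libraries and P2rx1 and Tubb1 lower in all 4.

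Among megakaryocyte genes that GATA1 switches on, more fell than rose. Of 28 listed, 26 were in the table and 25 were tested, of which 1 passed as higher and 9 as lower (4.68% and 3.75% of all genes), with a median log2 fold change of -0.61. The median lay between -0.72 and -0.35 when a library was left out, the latter without control replicate 4. P2rx1, a platelet ATP receptor, fell by 0.76 (edgeR, adjusted p = 0.00219). Tbxas1, thromboxane synthase, fell by 0.62 (adjusted p = 0.00970), and Mmrn1, multimerin, fell by 1.08 (adjusted p = 0.0107). The gene called higher was Selp, P-selectin, which rose by 2.89 (standard error 0.50, edgeR, adjusted p = 0.00889). Cd9 and P2ry1 were also higher in every MitolΔ/Δ library than in any control library, and DESeq2 called Cd9 higher (adjusted p = 0.0242). At an unadjusted p under 0.05 the list had 3 genes higher and 12 lower, DESeq2 called 2 and 10, and limma-voom called 1 and 8. Over the fits that left out a library, 6 to 9 genes were called lower and 1 higher, and at least 7 of the 10 calls were kept in each. Tubb1 and Thbs1, among those called lower, had at most 5 and 6 reads in any MitolΔ/Δ library. They passed the filter on low counts only through the control libraries.

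Platelet markers did not move as a block. Of 8 listed, 6 were in the table, and Pf4 and Tubb1 were called lower (log2 fold changes -1.69 and -3.02, edgeR, adjusted p = 0.0202 and 0.0127) while 0 were called higher, also at an unadjusted p under 0.05 and by DESeq2 and limma-voom. Tubb1 had 1, 5, 4 and 2 reads in MitolΔ/Δ replicates 1 to 4 and 18, 25, 12 and 37 in control replicates 1 to 4. It thus passed the filter on low counts only through the control libraries, where it was high. Itga2b, the integrin chain that marks the lineage from its start, was at 286, 351, 1111 and 1439.95 normalized counts in MitolΔ/Δ replicates 1 to 4 and at 560.5, 519, 569.9 and 589 in control replicates 1 to 4. It was thus above all control libraries in the MitolΔ/Δ replicates where Gata1 was high, and below them in the others (log2 fold change 0.49, adjusted p = 0.476). The platelet sum was 394 to 1699 in MitolΔ/Δ and 778 to 873 in control libraries.

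Markers of mast cells and basophils and of eosinophils were low. Of 10 mast cell and basophil markers, 2 were in the table, Cpa3 and Hdc, and summed to 11.4 to 27.5 normalized counts in MitolΔ/Δ and 11.3 to 28.7 in control libraries. Of 8 eosinophil markers, 2 were in the table, Ccr3 and Siglecf, with sums of 13.8 to 46.2 and 7.91 to 20.7. In both lists 0 genes passed the edgeR threshold, and 0 at an unadjusted p under 0.05 or by DESeq2. Of 10 neutrophil and monocyte and 10 lymphoid markers, 8 and 5 were in the table and 0 passed the edgeR threshold, although in the first list 1 gene had an unadjusted p under 0.05 and DESeq2 called 1 higher and 1 lower. The sums were 549 to 1042 against 423 to 663 for the first list and 151 to 185 against 176 to 253 for the second. Their part in the results was not tested.

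Of 10 genes of the stem and progenitor stage that GATA1 holds down as red cells form, 0 passed as higher and 1 as lower in the edgeR test (4.68% and 3.75% of all genes), with a median log2 fold change of -0.11. At an unadjusted p under 0.05 the counts were 0 and 3, and DESeq2 and limma-voom each called 0 and 2. The gene that fell was Kit, the receptor of stem cell factor, at 7057 ± 1123 normalized counts in MitolΔ/Δ and 11706 ± 1511 in control HSCs (SD, n = 4 each). Kit also belongs to the gate used to sort the cells. Etv6 had a log2 fold change of -0.11 (edgeR, adjusted p = 0.382).

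Genes of the erythropoietin receptor pathway were split. Of 22 listed, all were tested, 5 passed as higher and 1 as lower (4.68% and 3.75% of all genes), with a median log2 fold change of 0.08. The kinase gene Jak2 and the factors Stat5a and Stat5b, which carry the signal of the receptor, had log2 fold changes of -0.03, -0.18 and -0.01 and were not called (edgeR, adjusted p = 0.888, 0.197 and 0.948). Those that rose were feedback and target genes that other cytokines also induce. Pim2 rose by 1.34 (edgeR, adjusted p = 0.00344), Podxl by 1.03 (0.00568), Pim1 by 0.97 (0.00836) and Socs3 by 2.80 (0.0107), and Socs2 was the fifth. The abundant Stat3 and Cbl had log2 fold changes of 0.38 and -0.02 (adjusted p = 0.119 and 0.918).

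**Figure D5:**
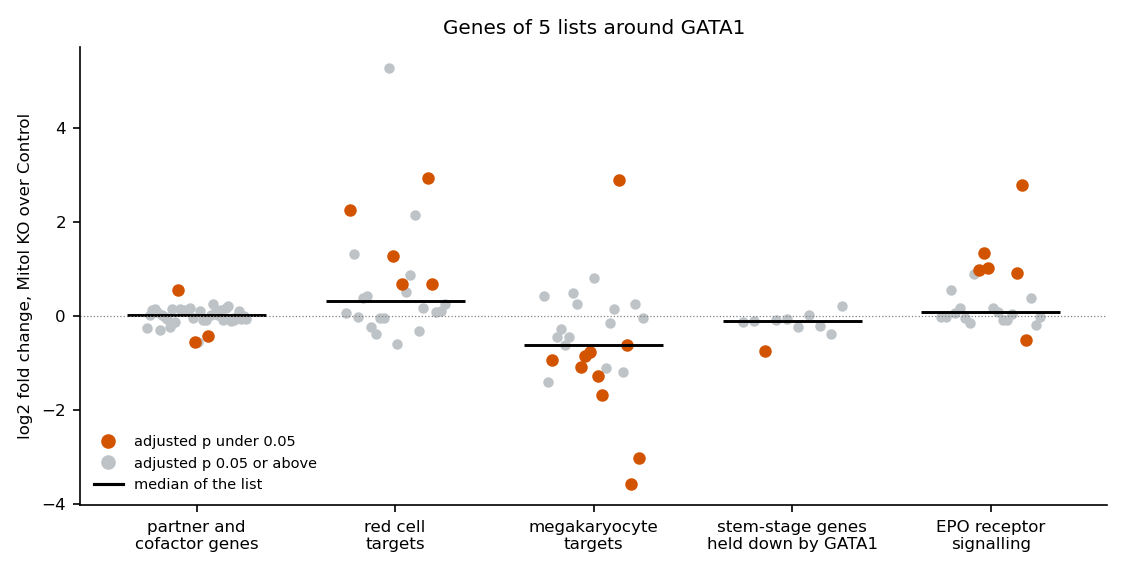
Fitted log2 fold change, Mitol KO over Control, of each tested gene in 5 lists around GATA1, with the list median as a line and called genes (edgeR, adjusted p under 0.05) in orange. The medians are 0.02 for partners, 0.32 for red cell targets, -0.61 for megakaryocyte targets, -0.11 for stem-stage genes and 0.08 for erythropoietin receptor signalling.

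The genes whose pattern over the 8 libraries was most like that of Gata1 were Socs3, Selp, Tgfbi, Emilin2, Cd53, Cdkn1a, Gm42551, Gm16587, Mapk11 and Mt1. Socs3 is a feedback inhibitor of cytokine signalling, Cdkn1a encodes the cell cycle inhibitor p21 and Mt1 a metal-binding protein. Likeness is the root mean square difference of log2(normalized count + 1) after centring each gene, over 14539 genes with a mean of at least 20, and is a description. It was 0.326 for Socs3, 0.425 for Selp and 0.924 for Mt1. Socs3 was at 629, 700.4, 1789 and 2177 normalized counts in MitolΔ/Δ replicates 1 to 4 and at 194, 262, 260.0 and 43.1 in control replicates 1 to 4, so that it shared with Gata1 both the high replicates 3 and 4 and the low control replicate 4. Among the members, Epor came nearest, at rank 348, then Klf1 at 1879, and Nfe2 was last of them at 11972. The difference between the groups, for which Gata1 was chosen, counts in this likeness, so genes with a large rise come nearer.

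When the group means were taken out as well, so that the difference between the groups no longer counts, the nearest genes were Hbb-bt (0.199), Gm43062 (0.223), Socs3 (0.249), Col18a1 (0.251) and Btg2 (0.257). Hbb-bt, an adult globin gene, was thus the nearest of the 14539 genes compared, with highs in MitolΔ/Δ replicates 3 and 4 and a low of 144 in control replicate 4. The globin gene Hbb-bs did not share this pattern, at 1048 normalized counts in MitolΔ/Δ replicate 3 and 8.46 in replicate 4. On log2 CPM values 3 of the 5 nearest genes stayed among the nearest 5. Gm43062, a noncoding gene, had means of 52.5 and 55.6 normalized counts (log2 fold change -0.09, edgeR, adjusted p = 0.920).

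Genes next to Gata1 on chromosome X were read for comparison. Hdac6, which ends 11095 bases from Gata1, rose by 0.57 (edgeR, adjusted p = 0.00963), and Timm17b rose by 0.55 (adjusted p = 0.0402). Pqbp1, Suv39h1, Was and Wdr13 had log2 fold changes of 0.31, 0.46, 0.03 and -0.17 and did not pass the threshold (adjusted p = 0.356, 0.0849, 0.869 and 0.390). The largest difference among the 6 neighbours was thus that of Hdac6, against 3.30 for Gata1. The antisense gene that overlaps Gata1, Gm14820, held 39 reads over all libraries.

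Klf1, Lmo2 and Epor also share exons with genes on the opposite strand. Their partners there, Gcdh, 4931422A03Rik and Swsap1, had log2 fold changes of 0.26, -0.31 and 0.27 and did not pass the threshold (edgeR, adjusted p = 0.297, 0.158 and 0.428). Exons of Gata2, Zfpm1, Gfi1b and Tal1 overlap those of noncoding genes on the opposite strand that are not in the count table. Reads in these overlaps cannot be assigned either.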

How the data were processed

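Per the labels and the study's methods, the authors mapped single-end reads to mm39 with STAR, merged the alignments with SAMtools and used Subread to obtain the number of reads on each gene. The deposited values are these counts, without normalization. Which annotation they used, and whether counting used strand, is not given in the sources used here. Of 23094 rows, 1029 carry no gene symbol (0.335% to 0.467% of a library's counts) and were left out. The table holds no row with fewer than 11 counts. Hyphens that the table writes as dots were restored, and 21526 of 22065 named genes matched GENCODE vM39, which gave positions and exon lengths on GRCm39.

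The 16444 genes past edgeR's default expression filter were fitted together (edgeR version 4.0.16, R 4.3.3, quasi-likelihood test, TMM normalization, condition as the only term), and p-values were adjusted over all of them by the Benjamini-Hochberg method, with a threshold of 0.05. DESeq2 (version 1.42.0) supplied the size factors by which counts were divided to give normalized counts. As alternatives, other normalizations, no filter, DESeq2, limma-voom (limma version 3.58.1) and the replicate number as a block were tried, and libraries were left out singly. The main edgeR fit and the DESeq2 and limma-voom fits were first tested on simulated data, and the other alternatives were not. Promoter sequences are from RefSeq.

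The 10 genes and all lists were chosen with earlier results of these data known. Named beside the 10 were, per pathway list, the 4 genes with the lowest adjusted p-value in each direction among those called and the 2 most abundant, called or most abundant marker genes, the genes most like Gata1 (10 over all libraries, 5 within groups), its 6 neighbours and Marchf5. Other genes named were chosen after their values were seen. Some genes that this rule names are not reported here. Depth was 7214935 to 12398138 counts per library, and 4 libraries of 100 cells per group limit the precision.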

Additional observations from a re-analysis of the deposited data

Results flagged for a closer look

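Among the 10 genes and the Gata1 to Gata2 balance, each looked at in both groups of 4 libraries (22 groups in all), 1 library stood apart from its group. Gata2 in MitolΔ/Δ replicate 4, at 4318 normalized counts, lay far above the other MitolΔ/Δ libraries (3294 to 3433), with a gap that was 0.864 of the whole range of the group, above the 95% critical value of Dixon for 4 samples. It was still below every control library. Chance alone sets apart about 1 in 20 such groups. Without this library the fitted log2 fold change of Gata2 was -0.47 (edgeR, adjusted p = 0.00290).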

How the results depend on the processing

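The log2 fold change of Gata1 lay between 2.98 and 3.57 over the alternatives and the difference in the balance between 3.27 and 4.03, and the choice of Gata1 fixes the direction of both. Canonical transcript lengths, an alternative chosen after seeing the data, lowered the log2 ratio of every library by the same amount (to -3.98 from -3.20 in MitolΔ/Δ replicate 1) and so cannot change the difference between groups, nor can leaving out the division by length. Of the 9 other genes, the 4 called lower became 1 with no filter on low counts and between 0 and 3 when each library was left out (3 without MitolΔ/Δ replicate 4). Calls among all genes, 1386 with all libraries, ran from 359 (without control replicate 2) to 2501 (without MitolΔ/Δ replicate 4), and DESeq2 called 2315. The cause was not tested. Scaling by library totals alone turned the split of 770 higher and 616 lower genes to 602 and 829, and the 4 genes stayed lower. The median of the partner list, 0.02 with all libraries and up to 0.061 without MitolΔ/Δ replicate 2, turned to -0.015 without MitolΔ/Δ replicate 4 and to -0.018 without control replicate 4.

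Same-numbered libraries correlated weakly (0.102, -0.042, 0.063 and 0.076), and libraries of other numbers correlated between -0.154 and 0.102. Not every library correlated best with its own number. Values this small cannot decide whether the numbers pair the libraries. With the replicate number as a block, 2 of the 9 genes were called lower (Gata2 and Lmo2, adjusted p = 0.0330 and 0.0484) and 1 higher (Klf1, log2 fold change 2.54, adjusted p = 0.00635), and 1652 of all genes were called. Genes with few reads, such as Klf1, carry a large counting error. The exact Poisson interval of Klf1 was 6.92 to 22.2 reads in MitolΔ/Δ replicate 1 and 82.3 to 123 in replicate 3. In control replicates 2 and 4 it was 0.242 to 7.22 and 13.8 to 33.3. Within each group, the Klf1 intervals of replicates 1 and 2 lay below those of replicates 3 and 4. These intervals take PCR copies as separate reads. The cause of this spread between libraries was not tested.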
